A study of Mus musculus with 36 samples.

Results

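Mouse embryonic stem cells (ESCs) that lack Zfp266 were compared with WT ESCs of the line they came from. Of the 36 RNA-seq libraries of the series, 6 belong to this comparison, namely 3 labelled as controls and 3 labelled as Zfp266 KO. Zfp266 encodes a predicted KRAB zinc finger protein. Proteins of this family bind DNA through their zinc fingers and usually recruit TRIM28, which brings in enzymes that silence chromatin. The other libraries of the series come from fibroblasts, reprogramming cells and iPSC clones of both genotypes, and only the 6 iPSC libraries (3 WT and 3 KO) enter a comparison here.

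All 6 ESC libraries share the same genetic background. The parental line, Clone J of Cas9 TNG MKOS ESCs, derives from E14Tg2a cells. Cas9 is driven by an EF1α promoter in its Rosa26 locus. Its Nanog-GFP-ires-Puro allele reports Nanog expression, and its Sp3 locus holds MKOS-ires-mOrange, the reprogramming factors, which only doxycycline switches on. The cells were cultured in serum medium with LIF and without doxycycline. The WT libraries are 3 samples of this single parental line. Each KO library is labelled as a clone of its own, grown from a single cell after transient transfection with a plasmid that carries a Zfp266 guide RNA, and genotyped by the authors. No WT clone went through the same cloning steps. The effect of losing Zfp266 and that of single-cell cloning can therefore not be told apart. The p-values use a spread per gene that was estimated jointly over all 36 libraries in 12 groups. The 3 clones and the 3 samples of the parental line are only part of these libraries. Whether these WT samples came from separate cultures is not stated, so their spread may be technical. The strain and age of origin are not given in the labels of these libraries.

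The guides are shown because they define what was disrupted. The study describes 3 guide RNAs against Zfp266, and which of them made these ESC clones is not stated in the sources used here. Each guide below is written 5′ to 3′ in lower case, followed by the adjacent PAM in capitals.
sgR1: acagcactttccgccacctCGG
sgR2: caattatgccttaacacagAGG
sgR3: cagaagaatctataccgagAGG
All 3 matched coding exons of a 9-exon Zfp266 transcript on the minus strand of chromosome 9 in GRCm38. The target of sgR3, with its PAM, lies in exon 6 at chr9:20505088-20505109 on the minus strand. That of sgR1 lies in exon 7 at chr9:20502049-20502070 on the plus strand, and that of sgR2 in exon 9 at chr9:20500366-20500387 on the minus strand.

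Total counts of the 6 libraries ranged from 29898633 to 34472535, and 20078 to 20311 genes had at least 1 read. Zfp266 itself had 2238, 2405 and 2445 normalised counts in the WT libraries and 2191, 1969 and 2222 in the KO clones. The KO values lay below the WT values, with a log2FC of -0.15 (SE 0.07, DESeq2 FDR 0.197), and the difference did not pass the test. The ESC markers were present in both groups. Their 7 genes summed to between 140290 and 144894 normalised counts in WT and between 150272 and 151944 in KO, against a mean of 227 in WT fibroblasts. The 7 fibroblast markers summed to 36.5 to 50.2 in WT ESCs and 43.1 to 90.7 in KO ESCs, against 422114 in WT fibroblasts.

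The KO clones were separated from the WT libraries along the leading axis of variation, and they also differed from each other. In a principal component analysis of 12108 genes the first component held 54.7% of the variance, with WT at -17.2, -14.9 and -12.4 and KO at 13.4, 17.9 and 13.3. The second component held 25.1%. It placed the WT libraries together at 0.43, 0.49 and 0.16, but KO clone 1 at -20.5, clone 2 at 7.32 and clone 3 at 12.1. Clone 1 therefore stood apart from the other KO clones on this component, and values are given for each clone below. The spread per gene was similar in both groups, with a median SD of 0.085 in WT and 0.090 in KO (log2 of normalised counts + 1).

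With DESeq2, 1706 of 16863 tested genes (10.1%) passed FDR 0.05. Of these, 982 (5.82% of tested genes) were higher in KO and 724 (4.29%) lower. These shares are the background for the counts of gene list members below. Leaving out 1 library gave 845 genes without KO clone 2, 859 without WT replicate 1, 992 without WT replicate 2 and 1137 without KO clone 3. Most shifts were small, since 1076 of them (63.1%) had an absolute log2FC under 0.5. DEGs, which also need an absolute log2FC above 1, numbered 204 (1.21%), with 125 higher (0.741%) and 79 lower (0.468%). Protein-coding genes made up 183 of the DEGs. The libraries of the groups did not overlap for 193 of the DEGs. Genes selected for a group difference mostly have this trait, which 1642 of the 1706 genes past FDR 0.05 shared, against 33.3% of all tested genes. A total of 82 DEGs had under 50 normalised counts in both groups, and 12 had under 10. Without KO clone 2 the DEGs fell to 100, of which 92 were shared with the 204, and without WT replicate 2 to 127, of which 110 were shared.

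The genes of the amino acid response made up the most uniform change. ATF4 is a transcription factor whose translation rises when amino acids run short or when other stresses phosphorylate the initiation factor eIF2α. It switches on amino acid importers, biosynthetic enzymes and aminoacyl-tRNA synthetases, together with regulators such as Ddit3 and Trib3 that shape how long the response lasts. Of the 36 tested genes of the ATF4 list, 29 rose in KO ESCs (80.6%, against 5.82% of all tested genes) and none fell. The median log2FC of the list was 0.91, against 0 over all tested genes. Of the 29, 13 had a log2FC above 1. The 6 libraries separated by genotype for all 29, as they did for 1642 of all 1706 genes past FDR 0.05. KO clone 2 was the highest of the 6 libraries for 27 of them, and clone 1 the lowest KO clone for 26. The median log2 ratio of the list to the WT mean was 0.54 in clone 1, 1.14 in clone 2 and 0.91 in clone 3. Without KO clone 2 the count of members that rose was 24.

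Among the importers, Slc7a1, the main carrier of arginine and lysine, had 861, 964 and 990.2 normalised counts in WT and 2260.3, 3560 and 2656 in KO. Its log2FC was 1.59 (SE 0.15, DESeq2 FDR 1.19e-21), and every clone lay above the highest WT value. The glycine carrier Slc6a9 had 49.2, 57.7 and 43.4 in WT and 121, 299.8 and 196 in KO (log2FC 2.04, DESeq2 FDR 6.26e-11). Slc1a4, a carrier of alanine and serine, rose from 434 ± 14.2 to 1183 ± 386 (mean ± SD, n = 3 per group), with a log2FC of 1.45 (DESeq2 FDR 2.95e-06). Slc3a2, the heavy chain shared by several amino acid exchangers, rose by less (log2FC 0.53, DESeq2 FDR 2.59e-07), as did Slc7a5 (0.85, FDR 0.00435) and Slc1a5 (0.52, FDR 0.00215). In all, 6 of the 22 amino acid transporters rose and none fell. Slc38a2, which imports neutral amino acids, had a log2FC of 0.19 (DESeq2 FDR 0.190). Slc7a3 and the cystine carrier Slc7a11 did not pass the test (log2FC 0.30 and 0.95, DESeq2 FDR 0.288 and 0.114). Slc7a11 had 10.8 counts in clone 1, below the 12.1 to 14.8 of WT, but 33.1 and 35.9 in clones 2 and 3.

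The enzymes that rose sit in serine synthesis, the mitochondrial folate pathway and proline and asparagine synthesis. Psat1, of the serine pathway, had 4406, 4184 and 3992 normalised counts in WT and 6880 (clone 1), 11098 (clone 2) and 9585 (clone 3) in KO (log2FC 1.13, DESeq2 FDR 2.52e-12). Phgdh and Psph, the other enzymes of that pathway, rose by 0.53 and 0.83. Mthfd2, a mitochondrial folate enzyme, had 1465, 1390 and 1539 in WT and 2658, 4424 and 3621 in KO (log2FC 1.28, DESeq2 FDR 8.90e-16). Aldh1l2, which oxidises formyl folate in mitochondria, had 21.09, 19.23 and 19.98 in WT and 87.1, 196 and 109 in KO. Its log2FC of 2.70 (SE 0.38, DESeq2 FDR 1.30e-09) exceeded that of every other ATF4 list member. Mthfd2l, a relative of Mthfd2, moved the other way, from 142, 162 and 170.2 in WT to 64.6, 51.6 and 40.4 in KO (log2FC -1.60, DESeq2 FDR 9.58e-05). Over the whole list of serine, glycine and one-carbon enzymes, 9 of 24 rose and 2 fell, Mthfd2l and the threonine dehydrogenase Tdh (log2FC -0.29, DESeq2 FDR 0.0150).

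Aldh18a1, which starts proline synthesis from glutamate, had 824, 1004 and 905 normalised counts in WT and 1540.4, 2747 and 2494 in KO (log2FC 1.31, DESeq2 FDR 1.10e-13). Pycr1, which completes that route in mitochondria, rose by the same log2FC of 1.31 (DESeq2 FDR 1.08e-05). Asparagine synthetase, Asns, had 3283, 3378 and 3314 in WT and 4515, 7503 and 6647 in KO (log2FC 0.90, DESeq2 FDR 1.60e-07). In the same list glutamine synthetase, Glul, fell (log2FC -0.29, DESeq2 FDR 0.0181), and in all 4 of 16 members were higher and 2 lower. Pck2, a mitochondrial enzyme that makes phosphoenolpyruvate, was in none of these lists and was among the 15 higher DEGs with the lowest FDR. It had 357, 326 and 314 in WT and 692, 1527 and 991 in KO (log2FC 1.69, DESeq2 FDR 1.44e-10).

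The regulators of the response followed. Atf4 had 3998, 3730.2 and 3618 normalised counts in WT and 4622, 7776 and 6359 in KO (log2FC 0.73, SE 0.15, DESeq2 FDR 0.000196). Ddit3, a transcription factor of the later response, rose from 161 ± 18.0 to 304.5 ± 60.6 (n = 3 per group, log2FC 0.92, DESeq2 FDR 0.000223). The pseudokinase Trib3, which holds ATF4 back, rose by 1.06 (DESeq2 FDR 1.46e-06) and Atf5 by 1.10 (FDR 4.73e-07). Nupr1, a small stress-induced chromatin protein, had 90.4, 71.9 and 69.5 in WT and 280.1, 577 and 389 in KO (log2FC 2.43, DESeq2 FDR 6.62e-18). Chac1, which degrades glutathione, had 82.3, 96.2 and 97.3 in WT and 257, 616 and 440.5 in KO (log2FC 2.25, DESeq2 FDR 4.93e-09). The stress cytokine Gdf15 rose by 1.45 (DESeq2 FDR 1.50e-07), and Sesn2, which restrains mTORC1 when amino acids are low, by 0.36 (FDR 0.0428). The members that did not pass included Atf3 (log2FC 0.46, DESeq2 FDR 0.498), Cebpb (0.23, FDR 0.568) and Ppp1r15a (0.21, FDR 0.357), which encodes the subunit that reverses eIF2α phosphorylation. Annotated genes on the opposite strand overlap Slc6a9, Aldh1l2, Pck2, Cars, Shmt2, Psph, Jdp2, Cebpg, Ddit3 and Atf5. Ddit3 overlaps Mars, a member of the synthetase list, and Atf5 overlaps Il4i1, which was itself a DEG, and whether the counting used the strand is not stated.

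The aminoacyl-tRNA synthetases attach amino acids to their tRNAs. Of the 20 cytosolic enzymes, 12 rose (60%, against 5.82% of all tested genes) and none fell, with a median log2FC of 0.51. The 12 that rose were Iars, Cars, Lars, Yars, Nars, Tars, Sars, Gars, Eprs, Mars, Aars and Farsb, with log2FC from 0.33 for Farsb to 0.95 for Cars. Cars, the cysteine enzyme, had 2756, 2838 and 2822 normalised counts in WT and 4390 (clone 1), 6221 (clone 2) and 5637 (clone 3) in KO (DESeq2 FDR 1.74e-19). Cars and Sars are in the ATF4 list too. For all 12 the KO clones lay above the WT libraries, with clone 1 the lowest KO clone each time. Farsa, whose product pairs with that of Farsb in 1 enzyme, did not pass the test (log2FC -0.24, DESeq2 FDR 0.244), nor did Hars (-0.10, FDR 0.286), Vars (0.08, FDR 0.743) or Kars (0.17, FDR 0.352).

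**Figure D1:**
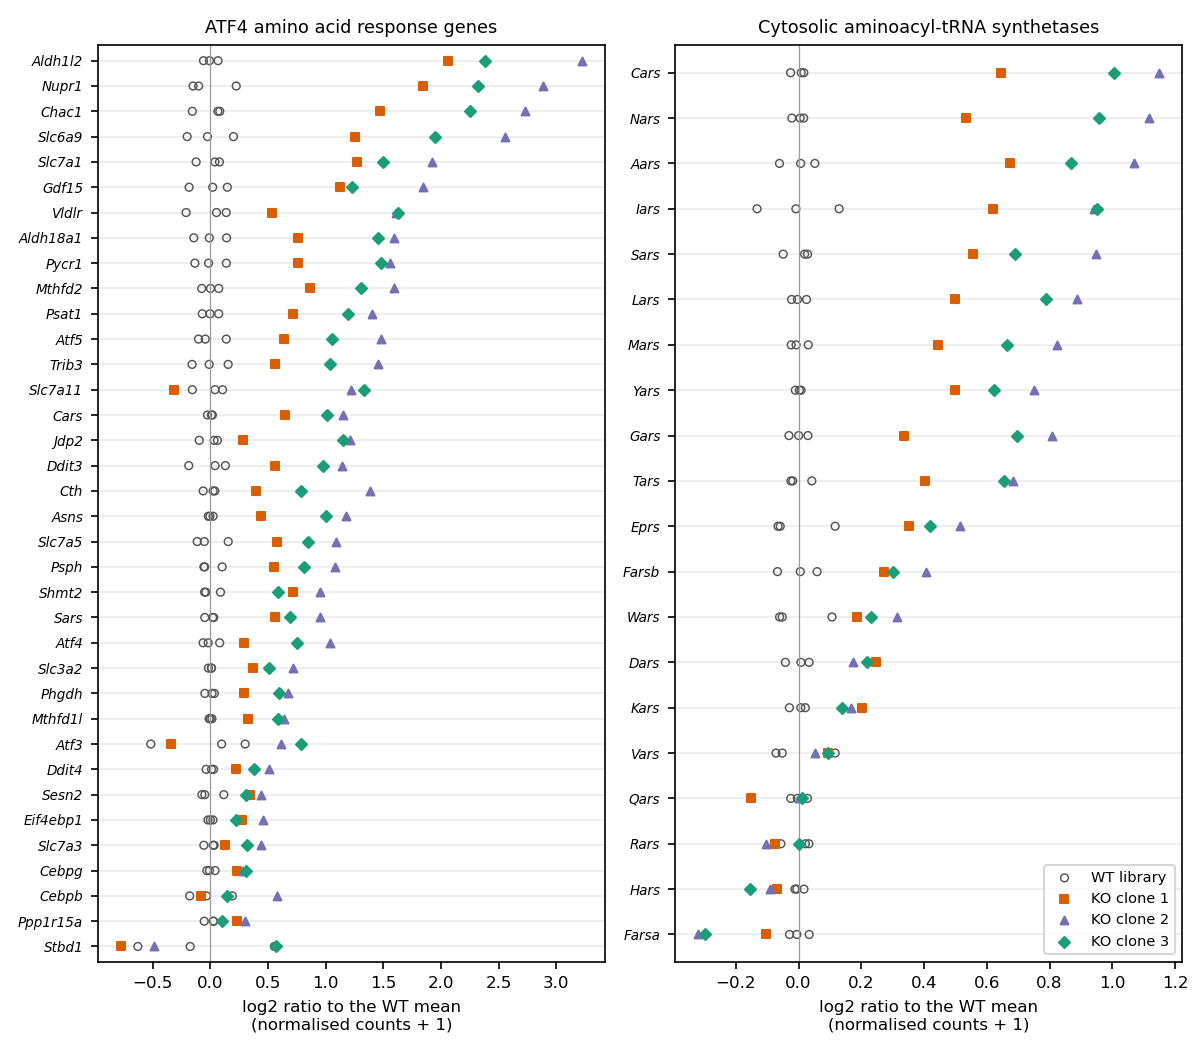
Log2 ratio of each ESC library to the WT mean (normalised counts + 1) for the 36 tested genes of the ATF4 list (left) and the 20 cytosolic aminoacyl-tRNA synthetases (right), sorted by log2FC, with open circles for the 3 WT libraries and filled symbols for the 3 KO clones. In the upper rows all KO clones lie to the right of all WT libraries, with KO clone 1 nearest to WT, while the lowest rows overlap or lie to the left.

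The promoters of these genes were read for the core of the C/EBP-ATF response element, the composite site that ATF4 binds with a C/EBP partner. The windows are 250 bases before to 50 bases after the annotated transcription start (RefSeq, GRCm38.p6). The letters TGATGNAA were searched on both strands. Of 31 ATF4 list genes with a window, 10 held a match (32.3%). A match was held by 7 of the 24 that had risen in KO and by 3 of the other 7. Of 13 synthetase genes with a window, 9 had risen and 5 held a match (38.5%), all of them among the 9. Over all 27025 genes with a window, 1219 did (4.51%), of 27 germline and meiosis genes, 2 did (7.41%), and of 19 serine, glycine and one-carbon enzymes, 0 did. The stretches of 30 bases below surround the match in some of the genes that rose, on the strand of the gene, with the match in capitals. Trib3, Jdp2, Aars, Iars and Yars also rose and held a match, and their stretches are not printed. The stretches are shown so that the shared letters can be compared, and TTNCATCA is the same site read on the other strand.
Asns: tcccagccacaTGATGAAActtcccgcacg
Chac1: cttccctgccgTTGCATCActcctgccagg
Nupr1: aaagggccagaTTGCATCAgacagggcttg
Pycr1: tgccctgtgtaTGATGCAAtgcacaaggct
Vldlr: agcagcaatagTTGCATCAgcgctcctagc
Gars: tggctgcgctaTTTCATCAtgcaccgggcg
Tars: gggccaggagtcccgTTGCATCAgctggtt
The stretches are at chr6:7693214-7693243 (minus strand) for Asns, chr2:119351038-119351067 (plus) for Chac1, chr7:126625562-126625591 (minus) for Nupr1 and chr11:120643833-120643862 (minus) for Pycr1. Those of the others are at chr19:27216809-27216838 (plus) for Vldlr, chr6:55037960-55037989 (plus) for Gars and chr15:11399659-11399688 (minus) for Tars. The match begins 23 bases before the start in Asns, 30 in Gars and 193 in Chac1. A match describes these letters and does not show that a protein is bound there.

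In other stress lists the genes that passed were few or went in different directions. None of 15 cytosolic heat shock genes passed the test in either direction. Over all tested genes 10.1% passed, so a list this short says little. Of 20 endoplasmic reticulum chaperone and stress genes, 3 rose (15%, against 5.82% of all tested genes) and 2 fell (10%, against 4.29%). Herpud1, a factor of protein degradation at that organelle, had 198, 245 and 249 normalised counts in WT and 343, 482 and 445 in KO (log2FC 0.87, DESeq2 FDR 0.000711), and Atf6 rose by 0.43 (FDR 2.01e-07). The chaperone Hspa5, however, fell by 0.23 (DESeq2 FDR 0.000983) and Sdf2l1 by 0.37 (FDR 0.00207). Of 22 p53 target genes only Sesn2 passed, which the ATF4 list holds too. That is 4.55% of the list, near the 5.82% of all tested genes that rose. Of 20 genes of oxidative stress and glutathione, thioredoxin, Txn1, was the sole gene that passed and it fell (log2FC -0.42, DESeq2 FDR 3.17e-07).

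**Figure D2:**
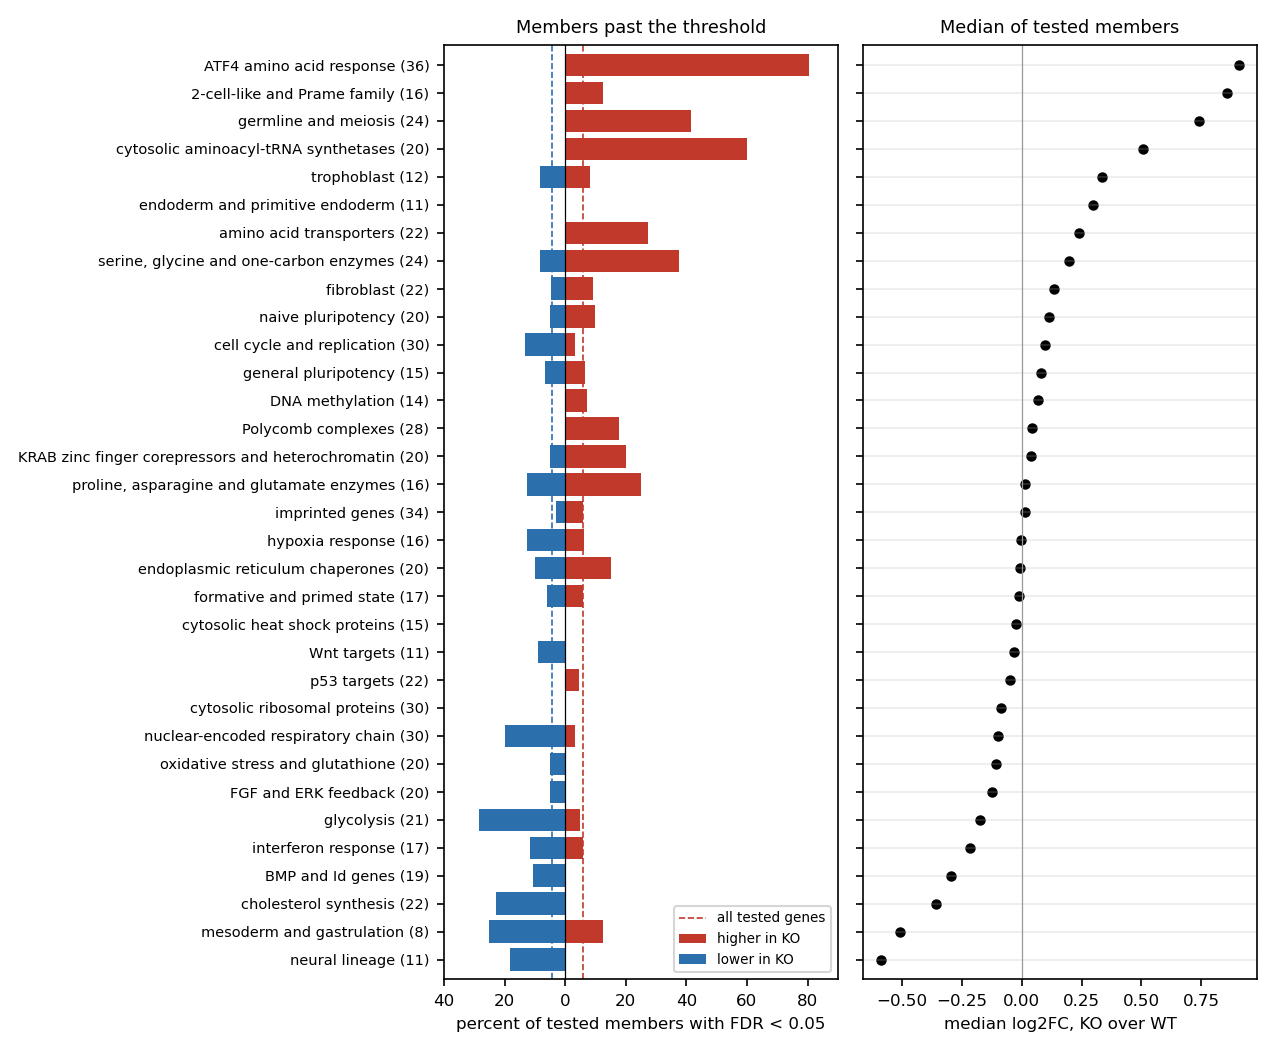
Left, percent of the tested members of each of 33 gene lists with FDR under 0.05 that were higher (red) or lower (blue) in KO ESCs, with dashed lines at the shares over all tested genes (5.82% and 4.29%) and the number of tested members in brackets. Right, the median log2FC of the tested members, which was 0.91 for the ATF4 list and -0.59 for the neural lineage list at the extremes.

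Genes that are normally used in germ cells formed a further group of higher genes. Many of these are held silent in somatic cells by DNA methylation and by repressors such as PRC1.6, and ESCs express a part of them at low level. Of 24 tested genes of the germline and meiosis list, 10 rose (41.7%, against 5.82% of all tested genes) and none fell, with a median log2FC of 0.74. Tex11, a meiotic crossover gene, had 70.3, 60.7 and 69.5 normalised counts in WT and 222, 154 and 179 in KO (log2FC 1.47, SE 0.27, DESeq2 FDR 1.18e-05). Hormad1, a protein of the meiotic chromosome axis, had 357.5, 317 and 305 in WT and 836, 904 and 766 in KO (log2FC 1.36, DESeq2 FDR 0.00213). Smc1b, the meiotic cohesin subunit, had 57.2, 96.2 and 77.3 in WT and 147, 341 and 400.2 in KO (log2FC 1.94, DESeq2 FDR 0.00189). For these 3 genes every clone exceeded every WT library. Mael and Piwil2, both of the piRNA pathway, rose by 1.501 and 0.81 (DESeq2 FDR 0.0178 and 0.0156), Tex19.1 by 0.95 (FDR 0.00542), and the meiotic cohesin subunit Stag3 by 0.83 (FDR 0.0437). Dazl and Ddx4, which mark germ cells themselves, did not pass (log2FC 0.38 and -0.06, DESeq2 FDR 0.456 and 0.889). Stra8, which licenses meiosis, had 573 counts in clone 1, 116 in clone 2 and 84.3 in clone 3, against 52.98 to 77.9 in WT (DESeq2 FDR 0.0555), so that most of its difference came from 1 clone. The count of list members that rose was 5 without KO clone 2, 6 without WT replicate 1 and 6 without WT replicate 3.

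More germ cell genes were found among the DEGs that the list did not hold, and these were picked out after their values were seen. They include Stk31 (223 ± 7.55 in WT, 448 ± 58.9 in KO, log2FC 1.01), Majin, which ties meiotic telomeres to the nuclear envelope (39.2 ± 2.75 and 147 ± 37.7, log2FC 1.90), Rnf17 of the germ cell granules (1767 ± 44.3 and 3711 ± 297, log2FC 1.07) and Fbxo47 (16.1 ± 4.42 and 39.2 ± 3.09, log2FC 1.28), all with n = 3 per group. The DESeq2 FDR of these 4 genes ranged from 1.46e-06 for Stk31 to 0.00827 for Rnf17. Parts of the sperm flagellum or of cilia, Tcte3, Dnah6, Spag16 and Maats1, were higher DEGs as well, with log2FC from 1.14 to 1.46.

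Of the 4 tested genes whose symbol starts with Prame, a family expressed in germ cells and early embryos, 2 rose in KO and the lowest log2FC was -0.27. Pramef8 had the lowest FDR of all DEGs. It had 386, 432 and 410.0 normalised counts in WT and 1094, 1207 and 1060 in KO (log2FC 1.45, SE 0.14, DESeq2 FDR 3.00e-22). Its neighbour Pramel1, 12265 bases away on chromosome 4, had 43.2, 36.4 and 31.3 in WT and 95.2, 119 and 100.5 in KO (log2FC 1.51, DESeq2 FDR 2.93e-05). Genes of this family are similar in sequence, so reads may be split between copies. Of the 16 tested genes of the 2-cell-like and Prame list these were the 2 that passed. The Zscan4 genes, which mark a rare ESC state that resembles the 2-cell embryo, were also higher in all KO clones than in all WT libraries for each of the 9 tested copies, with log2FC between 0.95 and 1.03. None passed the test, with an SE of 0.84 to 1.74 and a DESeq2 FDR of 0.496 to 0.800. The copies are similar in sequence and share reads. Zscan4c had 487, 463 and 340 counts in WT and 1015, 800.1 and 671 in KO.

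The naive pluripotency network changed little. Pou5f1 had 37886, 37201 and 36031 normalised counts in WT and 37665, 36331 and 32585 in KO (log2FC -0.06, SE 0.11, DESeq2 FDR 0.792). Nanog had 7548, 7834 and 7434 in WT and 8063, 8284 and 8586 in KO (log2FC 0.13, SE 0.14, DESeq2 FDR 0.638). Sox2, Esrrb, Zfp42 and Klf4 had log2FC of 0.10, 0.17, 0.21 and 0.03, and none passed (DESeq2 FDR 0.782, 0.358, 0.450 and 0.941). A p that misses the threshold does not show that these genes were equal. Of 20 naive genes, Klf5 and Prdm14 rose (log2FC 0.28 and 0.60, DESeq2 FDR 0.0333 and 0.0426) and Socs3 fell. Socs3, a feedback inhibitor of LIF signalling, had 3553, 3676 and 3817 in WT and 2254, 2019 and 1893 in KO (log2FC -0.84, DESeq2 FDR 0.0250). Gbx2, a target of the same pathway, was at 703 in clone 1, 420.5 in clone 2 and 359 in clone 3, against 722 to 892 in WT (DESeq2 FDR 0.582).

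**Figure D3:**
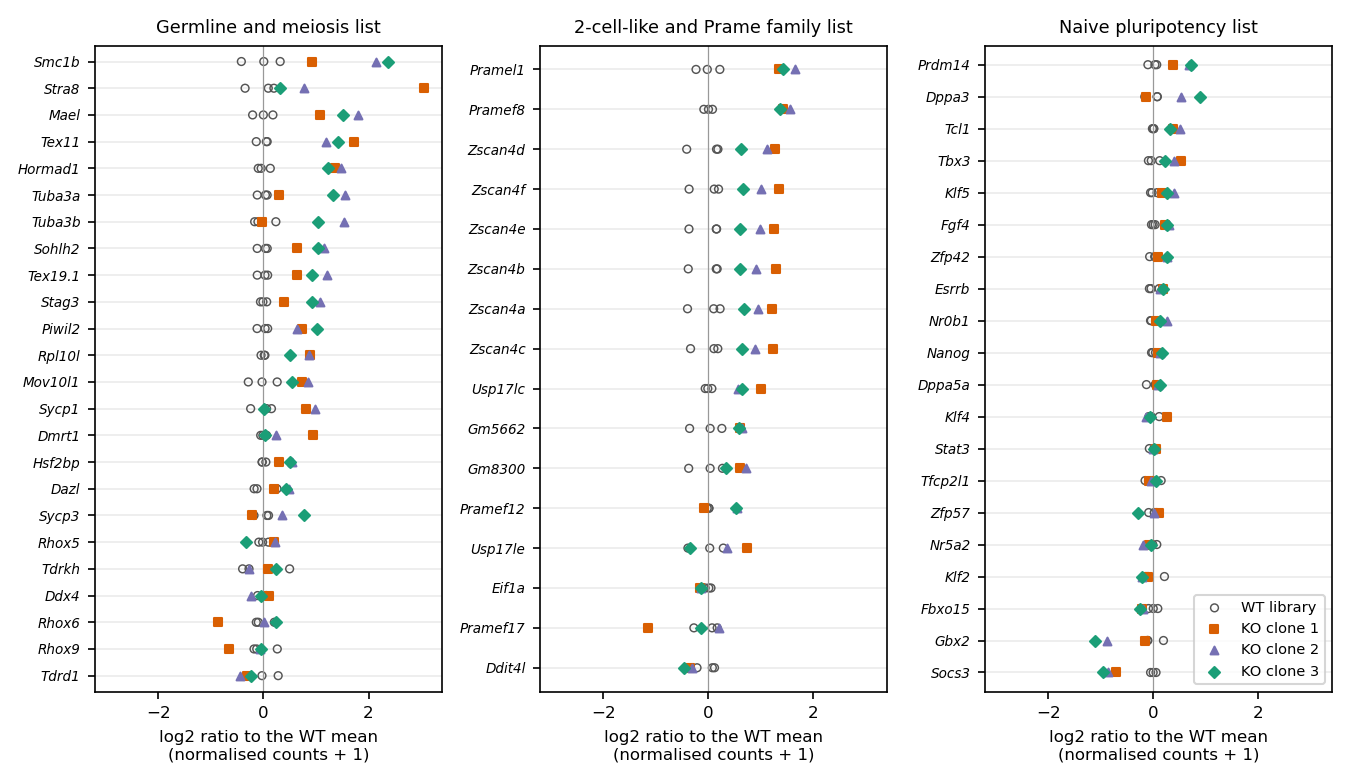
Log2 ratio of each ESC library to the WT mean (normalised counts + 1) for the tested genes of the germline and meiosis list (24), the 2-cell-like and Prame list (16) and the naive pluripotency list (20), with open circles for WT libraries and filled symbols for KO clones. The upper rows of the first panels lie to the right of WT in all clones, Stra8 is far to the right in KO clone 1, and most naive genes lie near 0.

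Some zinc finger genes and chromatin regulators passed the test. Zfp229, a zinc finger gene, had 1168, 1185 and 1231 normalised counts in WT and 2622, 3021 and 3315 in KO (log2FC 1.32, SE 0.19, DESeq2 FDR 9.05e-10). Over the 381 tested genes whose symbol starts with Zfp, a family picked after values were seen, 30 rose (7.87%, against 5.82% of all tested genes) and 5 fell (1.31%, against 4.29%), with a median log2FC of 0.06. Besides Zfp229, the zinc finger genes Zkscan7, Zfp264, Zfp951 and Zc3h6 were higher DEGs, with log2FC from 1.14 to 1.45. Of these, Zfp264 is annotated as a transcribed pseudogene and overlaps Zim3 on the opposite strand. Of 20 KRAB corepressor and heterochromatin genes 4 rose (20%) and 1 fell (5%), against 5.82% and 4.29% of all tested genes. The gene that fell was Suv39h1, a histone H3K9 methyltransferase, with 491, 466 and 431 in WT and 297, 243 and 329 in KO (log2FC -0.67, DESeq2 FDR 0.000539). Trim28, the corepressor that KRAB domains recruit, had a log2FC of -0.01 (DESeq2 FDR 0.981). Of 28 Polycomb genes 5 rose (17.9%, against 5.82% of all tested genes) and none fell. Jarid2, a cofactor of PRC2, had 12586, 13873 and 15208 in WT and 20235, 20642 and 20574 in KO (log2FC 0.56, DESeq2 FDR 1.79e-05), and the PRC2 subunit Suz12 rose by 0.30 (FDR 4.85e-05). Of 14 DNA methylation genes only Tet3 passed (log2FC 0.47, DESeq2 FDR 0.0482).

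Imprinted genes did not shift together. Of 34 tested, Igf2 and Slc22a18 rose and Ndn fell. Igf2 had 4.02, 7.09 and 4.34 normalised counts in WT and 16.2, 28.2 and 19.7 in KO (log2FC 2.06, SE 0.48, DESeq2 FDR 0.00101), so a high fold came from low counts. The reciprocally imprinted H19 had a log2FC of 0.77 (DESeq2 FDR 0.589). Ndn had 163, 155 and 147 in WT and 106, 103 and 105 in KO (log2FC -0.56, DESeq2 FDR 0.00561).

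Other higher DEGs had mixed functions. Nxt2, a partner of the mRNA export receptor, had 248, 315 and 247.5 normalised counts in WT and 515, 1052 and 1170.0 in KO (log2FC 1.76, DESeq2 FDR 3.96e-09). Adgrd1, an adhesion receptor, had 40.2, 51.6 and 58.2 in WT and 76.3, 257 and 212 in KO (log2FC 1.86, DESeq2 FDR 1.41e-08). The lincRNA Gm12031 had 7.03, 17.2 and 14.8 in WT and 123, 133 and 96.9 in KO (log2FC 3.18, DESeq2 FDR 5.08e-09). Adprh, which removes ADP-ribose from arginine residues, had the lowest FDR of all genes although its log2FC of 0.94 kept it out of the DEGs, and it was picked for that after values were seen. It had 2703, 2657 and 2611 in WT and 5301, 5300.2 and 4743 in KO (SE 0.08, DESeq2 FDR 3.35e-31), and the clones agreed within a narrow range. Lineage transcription factors among the higher DEGs stayed at low counts, as in Nfix (4.10 ± 3.67 in WT and 20.1 ± 5.99 in KO) and Pax5 (4.38 ± 2.10 and 17.7 ± 3.03, n = 3 per group). Of 22 fibroblast genes 2 rose, Col1a1 and Acta2, and 1 fell, Col6a1. Col1a1 had 2.01, 0 and 5.21 counts in WT and 18.0, 17.5 and 3.59 in KO (DESeq2 FDR 0.0120), and its groups overlapped.

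The lower DEGs included genes of the nervous system and of cell adhesion. Jph4, which joins the plasma membrane to internal calcium stores in neurons, had 92.4, 74.9 and 92.9 normalised counts in WT and 46.7, 24.3 and 17.9 in KO (log2FC -1.55, SE 0.23, DESeq2 FDR 8.15e-09). Cdh2, or N-cadherin, had 292, 299.6 and 289 in WT and 139, 111 and 107 in KO (log2FC -1.30, DESeq2 FDR 1.99e-07). Dpysl2, an effector of semaphorin signalling in growing axons, had 193, 193 and 222 in WT and 103, 68.1 and 127 in KO (log2FC -1.03, DESeq2 FDR 4.11e-08). The guidance ligands Efna5 and Sema6a fell by 1.11 and 1.30 (DESeq2 FDR 1.46e-06 and 0.000400), and the potassium channel genes Kcnh4 and Kcnj3 by 1.70 and 1.45 (FDR 5.59e-06 and 0.00155). Counted after values were seen, 19 of the 79 lower DEGs encode such neuronal, guidance, adhesion or channel proteins, and no share over all genes is at hand for this grouping. Adhesion genes were also found among the higher DEGs, with Adgrd1 and the protocadherin genes Pcdhgb4 and Pcdhga8 (log2FC 1.40 and 1.64), whose transcripts overlap. For Stmn4 the KO clones were all at 0, against 3.01, 4.05 and 0 in WT, which is at or near the limit of 2.61 to 3.04 normalised counts that a count of 0 allows, so no fold is given.

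The neural lineage list holds other genes. None of the 11 tested members had a positive log2FC, the median was -0.59, and Map2 and Tubb3 passed. The genes that fell were 18.2% of this short list, against 4.29% of all tested genes. Map2, a dendritic microtubule protein, had 609.5, 635 and 588 normalised counts in WT and 352, 272 and 339 in KO (log2FC -0.93, SE 0.13, DESeq2 FDR 1.46e-09). Tubb3, neuronal tubulin, fell by 0.73 (DESeq2 FDR 0.0155). The progenitor genes did not pass, and clone 1 differed from the others there. The sum of Sox1, Pax6 and Nes was 985.65 in clone 1, 430.2 in clone 2 and 486 in clone 3, against 786 to 838 in WT. The list medians per clone were -0.25, -0.76 and -1.03. How far the share of spontaneously differentiating cells moves with these genes was not tested, and in bulk libraries fewer cells of a type and less RNA per cell cannot be told apart.

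**Figure D4:**
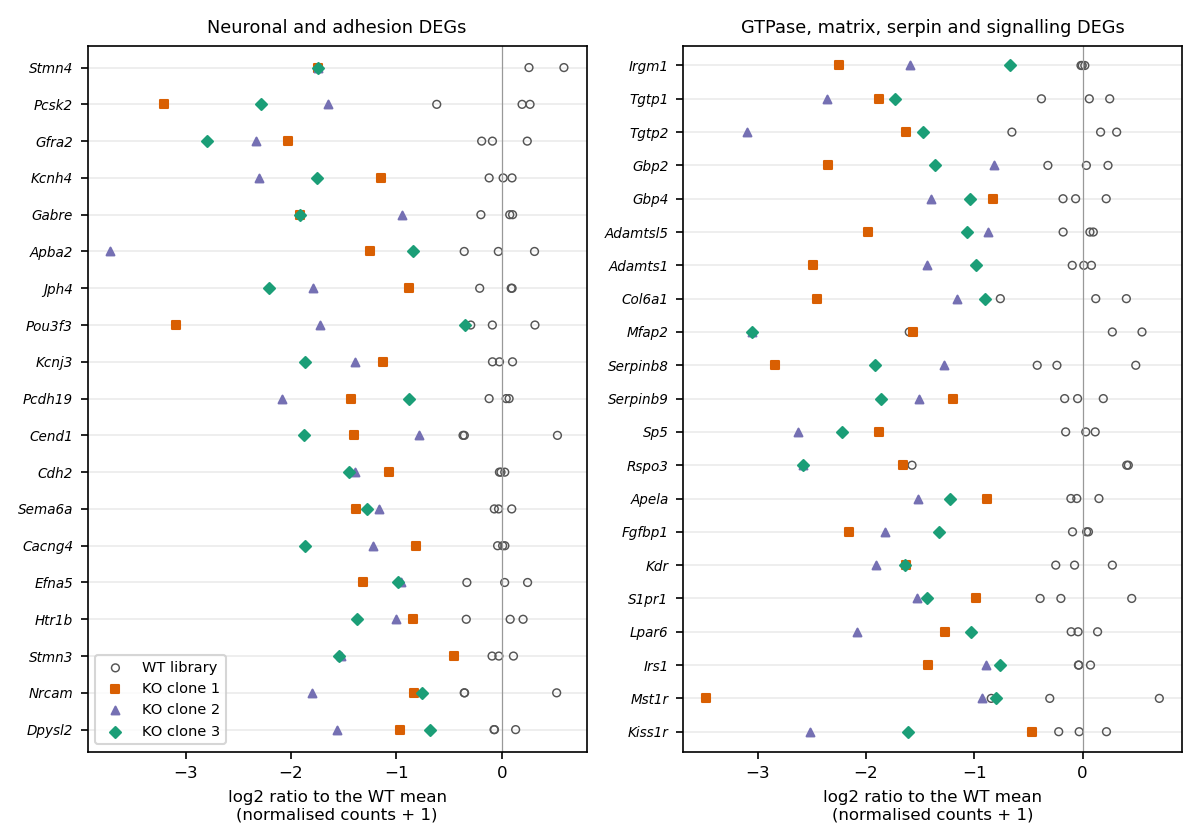
Log2 ratio of each ESC library to the WT mean (normalised counts + 1) for 19 lower DEGs with neuronal or adhesion functions (left) and 21 lower DEGs that encode interferon-inducible GTPases, matrix proteins, serpins and signalling proteins (right), with open circles for WT libraries and filled symbols for KO clones. Nearly all KO clones lie to the left of the WT libraries. The clones are spread over more than 1 log2 unit for several genes, among them Apba2, Pou3f3, Irgm1, Mst1r, Kiss1r and Adamts1.

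Secreted signals and their targets moved in both directions. Fgf2 rose from 7.17 ± 2.86 to 18.1 ± 2.54 normalised counts (n = 3 per group, log2FC 1.31, DESeq2 FDR 0.0144), and Igf2 and Gdf15, described above, were higher DEGs as well. In all, 8 higher DEGs were placed among growth factors and extracellular matrix after values were seen. Sp5, a transcription factor induced by Wnt, had 141, 123.5 and 149 normalised counts in WT and 36.8, 21.4 and 28.7 in KO (log2FC -2.25, SE 0.46, DESeq2 FDR 0.000103). It was the only one of 11 tested Wnt targets that passed, and the list median was -0.03. Id2 and Id1, which encode inhibitors of differentiation factors and respond to BMP, fell by 0.87 and 0.68 (DESeq2 FDR 7.62e-10 and 0.00328), and Id3 had a log2FC of -0.34 (FDR 0.282). Id1 had 1278, 1363 and 1412 in WT and 1072, 864 and 597.5 in KO, so clone 1 was nearest to WT. Of 19 BMP and Id genes those were the 2 that passed. Apela, an early embryonic hormone, had 772, 889.8 and 743.5 in WT and 434.5, 278 and 342 in KO (log2FC -1.19, DESeq2 FDR 9.82e-06). Fgfbp1, which releases FGFs from the matrix, fell by 1.74 (DESeq2 FDR 3.12e-05), and Adamts1, a matrix protease, by 1.54 (FDR 3.35e-05). Of 20 FGF and ERK feedback genes only Spry2 passed, falling by 0.46 (DESeq2 FDR 0.0466). It was at 3908 in clone 1, within the WT range of 3868 to 4123, and at 2502 and 2314 in clones 2 and 3.

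Of 12 tested trophoblast genes 1 rose (8.33%) and 1 fell (8.33%), and of 8 mesoderm genes 1 rose (12.5%) and 2 fell (25%). Over all tested genes 5.82% rose and 4.29% fell, and these lists are short. Gata2, a regulator of trophoblast and blood, had 44.2, 66.8 and 77.3 normalised counts in WT and 21.5, 28.2 and 26.0 in KO (log2FC -1.32, DESeq2 FDR 0.00102). Hand1 rose (log2FC 1.57, DESeq2 FDR 0.0430), and it belongs to the trophoblast and the mesoderm list. Kdr and Tbx20, genes of mesoderm and heart, fell by 1.79 and 1.76 (DESeq2 FDR 0.0113 and 0.00723). None of 11 tested endoderm genes passed.

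Over all tested genes 5.82% rose and 4.29% fell. Of 22 genes of cholesterol synthesis and uptake 5 fell (22.7%) and none rose, and 21 had a negative log2FC (median -0.36). Insig1, a feedback sensor of sterols, had 3153, 3160.3 and 3026 normalised counts in WT and 1693, 1638 and 2077 in KO (log2FC -0.79, DESeq2 FDR 0.00365). Hsd17b7 and Msmo1, enzymes of the later steps of synthesis, fell by 0.42 and 0.56 (DESeq2 FDR 0.0208 and 0.0487). Clone 3 was nearest to WT, with a list median of -0.19 against -0.52 in clone 1 and -0.42 in clone 2. Of 21 glycolysis genes 6 fell (28.6%), among them Pgam1 (log2FC -0.28, DESeq2 FDR 0.000107), Eno1 (-0.30, FDR 0.000384) and Ldha (-0.28, FDR 0.0182). Pfkp, a phosphofructokinase, rose by 0.36 (DESeq2 FDR 0.00476). Of 30 nuclear-encoded respiratory chain genes 6 fell (20%) and 1 rose (3.33%), all by under 0.30. Among 16 hypoxia response genes Vegfa rose (6.25%) from 328 ± 16.3 to 641 ± 155 (n = 3 per group, log2FC 0.97, DESeq2 FDR 0.000366), while Ndrg1 and Higd1a fell (12.5%). None of 30 ribosomal protein genes passed, where 10.1% of all tested genes did. Mttp, Pla1a, Plb1 and Gdpd5, which handle lipids and were grouped after values were seen, were higher DEGs, with log2FC from 1.08 to 2.06.

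Cell cycle genes were mixed. Of 30, Pcna, Ccne1, Ccne2 and Ccnd2 fell and Top2a rose. Pcna, the sliding clamp of DNA replication, had 13778, 13745 and 12934 normalised counts in WT and 11160, 10510 and 10652 in KO (log2FC -0.32, SE 0.07, DESeq2 FDR 0.000181). The cyclin E genes Ccne1 and Ccne2 fell by 0.47 and 0.54 (DESeq2 FDR 0.0120 and 0.00411).

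The interferon response list had 1 gene higher and 2 lower of 17. Bst2 rose by 0.36 (DESeq2 FDR 0.0228), and Gbp2 fell by 1.47 (FDR 0.0318). Irgm1, Tgtp1, Tgtp2 and Gbp4, further GTPases that interferon induces, were lower DEGs as well and were grouped with Gbp2 after values were seen. Irgm1 had 54.2, 54.7 and 55.6 normalised counts in WT, and 10.8 in clone 1, 17.5 in clone 2 and 34.1 in clone 3 (log2FC -1.40, DESeq2 FDR 0.00184). Tgtp1 and Tgtp2 are near-identical copies on chromosome 11, so their counts cannot be assigned with certainty to either.

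In some DEGs 1 clone stood apart from the other KO clones. A930004D18Rik and Skida1, which lie 2938 bases apart on chromosome 2, had 197 and 81.7 normalised counts in clone 1. In clones 2 and 3 they were at 59.4 and 61.0 for A930004D18Rik and at 27.3 and 25.1 for Skida1, against WT means of 45.9 and 21.5. Serpinf1 had 69.1 counts in clone 2, against 18.9 and 22.4 in the other clones and 3.47 to 5.02 in WT (log2FC 3.14, DESeq2 FDR 1.94e-05). Apba2 was at 0.97 in clone 2 and at 9.87 and 13.5 in the others, against 19.23 to 31.1 in WT. For Serpinf1 and Apba2 the other clones also lay outside the WT range. Mst1r was at 0 in clone 1. Among the 125 higher DEGs the highest KO clone was clone 2 for 82, clone 3 for 23 and clone 1 for 20.

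DEGs were spread over all autosomes and X. In 14 cases DEGs that follow each other along a chromosome lay within 100 kb, and in 12 of these both moved the same way. Beside the pairs named above, they include Atp12a with Rnf17 on chromosome 14 and Maats1 with Pla1a on chromosome 16, all higher. No share over all neighbouring genes is at hand. Some of the pairs overlap, among them Trim16 with Fbxw10, Atf5 with Il4i1 and Pcdhgb4 with Pcdhga8. Others are similar copies whose reads may be shared, as Tgtp1 with Tgtp2. The median log2 ratio to WT of each autosome and X lay between -0.04 and 0.06 in the KO clones and between -0.03 and 0.03 in the WT libraries. The 10 Y-linked genes had medians of 0.22, 0.35 and 0.31 in KO, against -0.12 to 0.08 in WT. With a mean of at least 500 counts, 7 Y-linked genes remained in that calculation and the KO medians were -0.0023, 0.016 and 0.12.

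The KO effect was then set beside that in iPSCs, whose WT and KO libraries are separate from those of the ESCs. Of the 125 higher ESC DEGs, 95 were also higher in KO iPSCs by FDR (76%) and none was lower, where 9.72% of 21020 tested genes were higher in iPSCs. Of the 79 lower ESC DEGs, 22 were lower in KO iPSCs (27.8%) and 3 were higher, where 6.63% of tested genes were lower. Of the ATF4 list 22 of 36 were higher and none lower in iPSCs, with a median log2FC of 0.57, and of the synthetases 10 of 20 were higher and 2 lower, with a median of 0.24, against 0.02 over all genes tested in iPSCs. Of the 29 germline genes tested there, 16 were higher and none lower (median 0.88). A test of the difference between the KO effects called 242 of 16447 genes (1.47%), of which 90 had the more positive effect in ESCs. It called 61 genes with edgeR and 49 when only the 12 ESC and iPSC libraries were fitted. The DESeq2 fit to all libraries called 1 of the 121 higher ESC DEGs with a value, Atf5, and 10 of the 75 lower DEGs. Atf5 had a log2FC of 0.22 in iPSCs (interaction DESeq2 FDR 0.0431). Irgm1 fell in ESCs but rose in iPSCs (log2FC -1.40 and 1.15, interaction DESeq2 FDR 9.86e-05). Cholesterol genes, 5 of which fell in ESCs, had 1 higher and none lower in iPSCs, and the interaction called none of them. Map2, Id2 and Sp5 were lower in both, with iPSC log2FC of -1.30, -1.38 and -2.55.

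**Figure D5:**
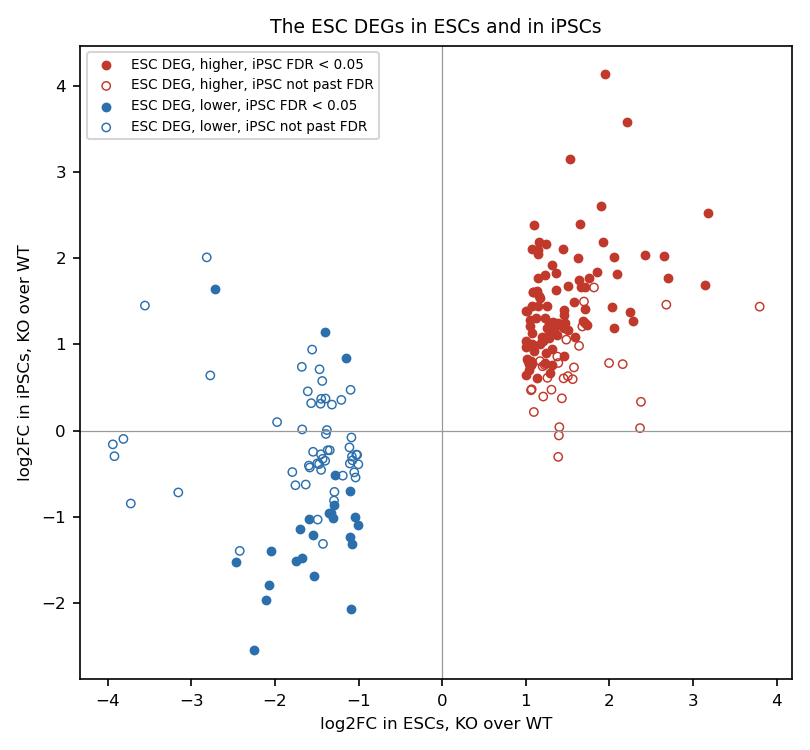
Log2FC of KO over WT in ESCs (horizontal) and in iPSCs (vertical) for the 204 ESC DEGs, red for those higher and blue for those lower in KO ESCs, filled where the iPSC comparison passed FDR 0.05. Nearly all higher DEGs lie above 0 on the vertical axis and 95 are filled, while the lower DEGs are spread on both sides of 0.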

How the data were processed

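The deposited table used here holds unnormalised counts of reads in genes for 36 mouse libraries. Per the methods of the study, the authors made stranded mRNA libraries. Cutadapt trimmed the reads, STAR aligned them to GRCm38, and Rsubread did the counting. The annotation release, the strand setting and the gene filter are not given in the sources used here. The deposited normalised and batch-corrected tables and tables of fold changes and p-values were not used here. Groups and replicate numbers came from the titles.

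DESeq2 1.42.0 in R 4.3.3 was fitted to all 36 libraries with 1 factor of 12 levels (median-ratio size factors, Wald test, unshrunken log2FC, Benjamini-Hochberg FDR with independent filtering), as the study did. DEGs had FDR under 0.05 and absolute log2FC above 1. The 4579 genes without an FDR stayed out of counts. Symbols and positions came from GENCODE M21 and all 21442 identifiers matched. Difference between ESC and iPSC effects was an interaction contrast of that fit. Normalised counts are counts over size factors (0.988 to 1.15 in ESCs). Log ratios per library used a pseudocount of 1 and, for components and chromosomes, genes with a mean of at least 100. A count of 0 allows up to 3 reads, and such limits cover counting error only. Pairs of replicates differed by 6.66 to 17.1 times the counting variance, so none was a copy. The pipeline was tested on simulated data.

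Genes named were Zfp266, the 15 higher and 15 lower DEGs with lowest FDR and no overlap, up to 8 called members of each of 33 lists with an abundant uncalled member, a fixed set of pluripotency, ATF4 and Id genes, and DEGs set apart by 1 clone. Not every such gene is printed. The comparison, the lists and the rule were chosen with earlier results of these data known. Function groups of DEGs, the Zfp family and other genes said so in the text were chosen after values were seen. Alternatives were edgeR 4.0.16, other sample sets, TMM, a count filter and leaving out each library.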

Additional observations from a re-analysis of the deposited data

Results flagged for a closer look

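For 11 of the genes named by rule, the KO effect in ESCs differed from that in iPSCs by the interaction test of the DESeq2 fit to all libraries. The synthetase genes Sars, Iars, Lars and Gars rose more in ESCs, by a difference in log2FC of 0.51, 0.48, 0.49 and 0.50 (FDR 0.00911, 0.00961, 0.00459 and 0.00851). The Polycomb genes Jarid2 and Rybp had differences of 0.53 and 0.32 (FDR 0.0354 and 0.0153), with log2FC of 0.56 and 0.27 in ESCs and 0.03 and -0.05 in iPSCs. The difference for Glul was 0.49 (FDR 0.0153), and it fell more in iPSCs (log2FC -0.78) than in ESCs (-0.29). Pfkp had a difference of -0.55 (FDR 0.0106), with a larger rise in iPSCs (0.91). Efna5 and Gata2 had differences of -0.91 and -1.62 (FDR 0.0272 and 0.0241) and were DEGs in ESCs only by their own tests. The difference for the chaperone gene Sdf2l1 was -0.44 (FDR 0.0478).

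The fit of the 12 ESC and iPSC libraries alone called none of these 11, with FDR from 0.108 for Pfkp to 0.564 for Sdf2l1, and the differences kept their sign there and with edgeR. The edgeR interaction FDR was 0.0278 to 0.0429 for the 4 synthetase genes and 0.0595 to 0.185 for the other 7.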

How the results depend on the processing

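The 204 DEGs kept their direction in all 11 alternative fits. The counts moved more. Leaving out 1 library gave 100 to 243 DEGs, with 62 to 151 higher and 38 to 92 lower, the lowest without KO clone 2 (WT replicate 2: 127, with 81 and 46). By FDR alone it gave 845 to 1520 genes, 496 to 871 higher and 323 to 649 lower, with 859 without WT replicate 1, 992 without WT replicate 2 and 1137 without KO clone 3. edgeR called 1107 genes, 375 of them lower, and the fit of the 6 ESC libraries alone called 2461. Testing against a log2FC of 1 itself left 2 DEGs, 2 higher and 0 lower, so most DEGs were not separated from a log2FC of 1. Same-numbered samples did not deviate together (correlations -0.0059, 0.025 and 0.062), so the numbers do not pair them. A replicate block in the 6 ESC libraries gave 150 DEGs, 109 higher and 41 lower.

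Of all list members, 82 were higher and 46 lower. The 6 ESC libraries alone gave 126 and 83, edgeR 25 lower, and leaving out 1 library 59 to 81 higher and 24 to 43 lower. The germline list had 5 to 11 higher when 1 library was left out, the ATF4 list 24 to 29. The interaction called 61 genes with edgeR and 49 with the 12 ESC and iPSC libraries alone. The cause of these differences was not tested.

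Reversals were limited to genes that did not pass. Leaving out 1 library gave log2FC from -0.13 to 0.53 for Dusp9, -0.032 to 0.042 for Trim28, -0.062 to 0.061 for Srebf2, -0.20 to 0.14 for Lama1, -0.094 to 0.040 for Kdm3a, -0.024 to 0.024 for Atp5b and -0.096 to 0.11 for Klf4. edgeR gave 0.0015 for Trim28 and 0.0031 for Srebf2, and TMM gave 0.00079 for Srebf2. The replicate block gave -0.024 for Lama1 and -0.0097 for Atp5b, and the 6 ESC libraries alone -0.0064 and -0.0094. Of the named genes that passed, 36 no longer did with edgeR, 33 with the replicate block and 47 without KO clone 2.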
